A study of Oryza sativa with 18 samples.

Results

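The genes described here encode the proteins of the cytosolic ribosome of rice (Oryza sativa, cultivar Nipponbare). They were taken from the expression table by their descriptions, which had to contain "40S ribosomal protein", "60S ribosomal protein" or "60S acidic ribosomal protein". The rule found 158 of 38663 genes: 63 of the small subunit (40S), 82 of the large subunit (60S), 8 acidic proteins of the large subunit's stalk and 5 genes listed as "60S ribosomal protein L18a-like protein". By the protein named in the description they form 74 families, of which 15 hold 1 gene and 59 hold several, up to 5. A gene whose description spells the phrase as "acidiic" was missed by the rule and is not counted.

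The study profiled N6-methyladenosine (m6A), a methyl mark on the adenosines of mRNA, in panicles and flag leaves of field-grown Nipponbare. The groups were panicles at flowering, collected on 14 August, panicles at booting, collected on 3 August, and flag leaves at flowering, for which no day is labelled. All were taken in mid-afternoon. Poly(A) RNA was broken into short fragments, and immunoprecipitation with an m6A antibody enriched the modified ones, while a small part served as input. There were 3 input and 3 immunoprecipitated libraries per group, 18 in all, made with strand marking. Panicle stage and collection day cannot be told apart. Nothing in the labels says that replicates came from separate plants, so p-values reflect the spread of these samples alone, which may be technical.

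The cytosolic ribosome reads mRNA on its small subunit and joins amino acids on its large subunit. Growing and dividing cells are known for making many ribosomes, and the mRNAs of ribosomal proteins are among the most abundant in such cells. In plants most ribosomal proteins are encoded by several paralogs, whose products are nearly alike. Because paralogs are nearly alike, their reads may have been shared out between genes in the authors' quantification, and values of single paralogs are uncertain to that extent. Coordinates are those of the files, whose genome build is not given in the sources used here.

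Ribosomal protein genes took the largest share of input RNA in booting panicles, a lower share in flowering panicles and the lowest in flag leaves. Levels are FPKM (fragments scaled by transcript length and library depth), which the authors deposited for the 9 inputs. The 158 genes together held 2.26%, 2.25% and 2.38% of all FPKM in the flowering panicle libraries and 3.59%, 3.99% and 4.44% in the booting panicle libraries. In the flag leaf libraries they held 1.48%, 1.47% and 1.34%. No library of a group overlapped with another group. The 3 booting libraries were spread most widely, with replicate 1 lowest and replicate 3 highest. In booting replicate 3, 155 of 156 genes lay above their group mean, and in booting replicate 1 only 2 of 156 did. In flag leaf replicate 3, 20 of 156 lay above it. The median deviation of these genes from the group mean of log2(FPKM + 1) was 0.177 in booting replicate 3 and -0.167 in booting replicate 1. In flag leaf replicate 3 it was -0.096. Over all genes tested the median was -0.012, -0.006 and -0.003 in the same 3 libraries. Being bulk samples, they do not tell fewer cells of a type apart from less RNA per cell.

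The subunits moved nearly in parallel. The 60S genes summed to 1.33 ± 0.0501% of FPKM in flowering panicles, 2.32 ± 0.241% in booting panicles and 0.835 ± 0.0484% in flag leaves (SD, n = 3 each). The 40S genes summed to 0.861 ± 0.0214% in flowering panicles, 1.52 ± 0.163% in booting panicles and 0.537 ± 0.0290% in flag leaves (SD, n = 3 each). The ratio of summed 60S to summed 40S FPKM was 1.54, 1.53 and 1.57 in flowering panicles, 1.53, 1.52 and 1.52 in booting panicles, and 1.58, 1.53 and 1.55 in flag leaves. These ratios overlapped between flowering panicles and flag leaves, while every booting library lay slightly below all libraries of both. The highest booting ratio was 1.5289, and the lowest was 1.532 in flowering panicles and 1.5328 in flag leaves. The stalk genes summed to 0.0858 ± 0.00566% in flowering panicles, 0.153 ± 0.0188% in booting panicles and 0.0454 ± 0.00328% in flag leaves.

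**Figure D1:**
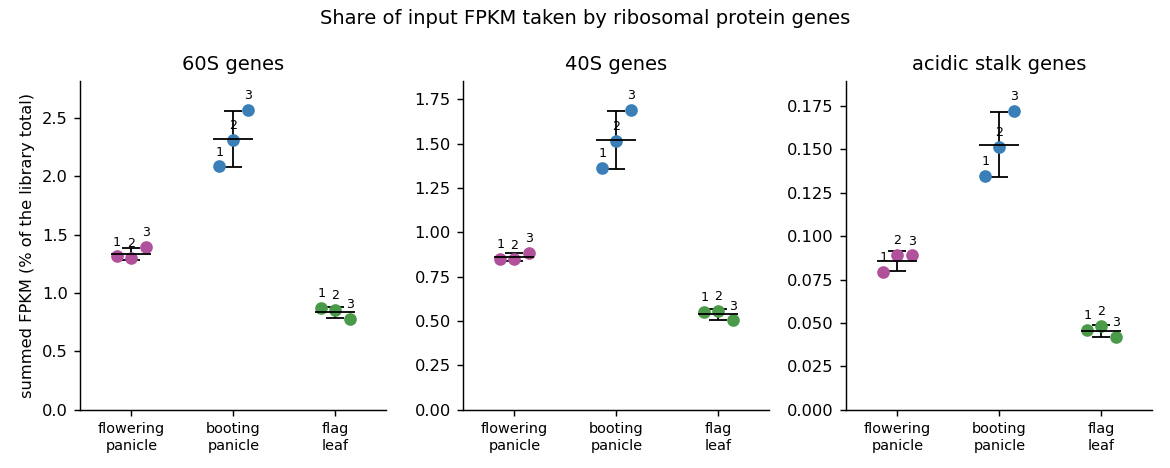
Summed FPKM of 60S, 40S and acidic stalk genes as a percentage of the library's FPKM total, by group. Points are the 3 input libraries, numbered by replicate, and bars are the mean ± SD. The 60S genes hold 1.30 to 1.39% in flowering panicles, 2.08 to 2.57% in booting panicles and 0.780 to 0.872% in flag leaves, and the 3 panels have the same order of groups.

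Of the 158 genes, 156 reached an FPKM of 1 in no fewer than 3 libraries and were tested, and 155 reached it in all 9. The 2 that were not tested are P2 genes without appreciable signal (LOC_Os07g14750 and LOC_Os07g28710, at 0.502 FPKM or less in every library). A change is the difference of log2(FPKM + 1) between group means, which understates the change of low genes. A call needed a limma p under 0.05, adjusted over all 23355 genes tested after Benjamini and Hochberg, and a minimum log2 change of 1 up or down. In 134 of 156 genes, 85.9%, every booting library lay above every flowering library and every flowering library above every leaf library. Of all genes tested 30.1% had this order.

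Flowering panicles had less of most ribosomal protein mRNAs than booting panicles, by a modest amount. The median log2 change was -0.66 over 40S genes, -0.62 over 60S genes and -0.59 over stalk genes, against -0.09 over all genes tested. Of the 156 genes 138 fell by adjusted p alone (limma), 88.5%, against 42.7% of all genes tested, and 1 rose (all genes tested, 35.4%). Among them were 54 of 63 genes of the 40S subunit, 78 of 82 of the 60S subunit and 5 of 6 stalk genes. With the minimum log2 change of 1, 14 fell, 8.97% (all genes tested, 15.3%), and 1 rose (all genes tested, 18.1%). The count of 14 became 8 when booting replicate 3 was left out and 22 when booting replicate 1 was, and 29 with library sums made equal and 36 after quantile normalization. The median of all genes tested also moved, to -0.21 with equal library sums and -0.16 after quantile normalization. Shares of all genes called under these settings are not given here, so the recounts show only how the count depends on the setting. Most of the genes that fell did so by less than the minimum change.

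Against flag leaves the same genes were higher in panicles of both stages. In flowering panicles 148 rose by adjusted p alone (limma; all genes tested, 57.6%) and none fell (all genes tested, 24.8%), also at an unadjusted p under 0.05. With the minimum change 33 rose, 21.2%, below the 31% of all genes tested, and none fell (all genes tested, 11.5%). The median change was 0.73 for 40S genes, 0.76 for 60S genes and 0.93 for stalk genes, against 0.44 for all genes. After quantile normalization the median of all genes was -0.12, that of the ribosomal protein genes 0.47, and 10 of the latter rose past the minimum change. The share of all genes that did so under that setting is not given here. In booting panicles 151 rose by adjusted p alone (limma; all genes tested, 57.1%) and 1 fell (all genes tested, 28.4%). With the minimum change 128 rose, 82.1% (all genes tested, 36.4%), and 1 fell (all genes tested, 17.7%). The median change was 1.40 for 40S genes, 1.43 for 60S genes and 1.56 for stalk genes, against 0.51 for all genes. The 3 comparisons share libraries, so their counts are not independent of one another.

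**Figure D2:**
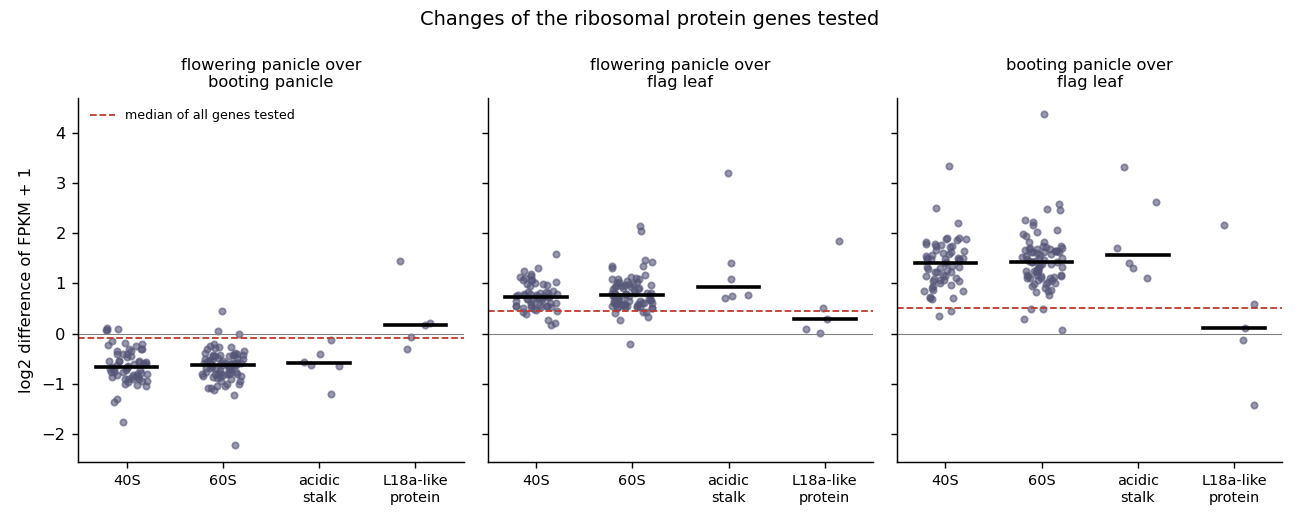
Differences of log2(FPKM + 1) for the 156 tested ribosomal protein genes in the 3 comparisons, by subunit. Points are genes, black bars the group medians, and the red dashed line the median of all 23355 genes tested. The 40S and 60S medians are -0.66 and -0.62 for flowering over booting panicles and 1.40 and 1.43 for booting panicles over flag leaves, while the L18a-like protein genes scatter on both sides of 0.

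Summed over the paralogs of a family, the group means of every protein followed the same order. All 73 families, leaving out the L18a-like protein genes, were lower in flowering than in booting panicles and higher in both panicle stages than in the leaf. This held with deposited FPKM, with equal library sums and after quantile normalization. The log2 ratio of family sums, each with 1 FPKM added, for flowering over booting panicles ran from -1.06 for L14 to -0.20 for L10, with a median of -0.64. For flowering panicles over flag leaves it ran from 0.33 for L10 to 1.89 for P2, and for booting panicles over flag leaves from 0.54 for L10 to 2.78 for P2. Family sums varied less than the genes did: the SD of the log2 change was 0.182 over families and 0.334 over the 151 genes for flowering over booting panicles, and 0.325 and 0.552 for booting panicles over flag leaves. Sums of several genes average out part of the spread of single genes.

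Family levels spread over more than an order of magnitude within each tissue. L39, a small protein that lines the exit tunnel of the large subunit, was highest in each group, with summed FPKM of 534 ± 58.9 in flowering panicles, 715 ± 25.1 in booting panicles and 273 ± 7.55 in flag leaves (SD, n = 3 each). L15 was lowest in each, at 38.3 ± 1.82 FPKM in flowering panicles, 66.3 ± 9.70 FPKM in booting panicles and 19.7 ± 1.22 FPKM in flag leaves. The median family stood at 151 FPKM in flowering panicles, 233 FPKM in booting panicles and 93.3 FPKM in flag leaves.

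The most abundant single genes were spread over both subunits. L39-3 (LOC_Os06g08320) had 459, 457 and 561 FPKM in flowering panicles, 643, 646 and 678 in booting panicles and 259, 250 and 246 in flag leaves. It was the highest ribosomal protein gene in each group, and no library of a group overlapped with another group. Its log2 change for flowering over booting panicles was -0.42 (SE 0.10, adjusted p = 0.0034, limma), and for booting panicles over flag leaves it was called at 1.38 (SE 0.10, adjusted p = 3.36e-07). Next by mean over the 9 inputs were S8-like (LOC_Os04g28180, 358 FPKM), S4 (LOC_Os02g01560, 311 FPKM) and L19-1 (LOC_Os03g21940, 274 FPKM). The remaining 6 of the 10 most abundant were L29-1 (LOC_Os05g28750), L36-3 (LOC_Os05g38520), L5, which binds a small rRNA of the large subunit, S10 (LOC_Os04g35090), the stalk base P0 and S6, at means of 200.1 to 242 FPKM. S6, the small-subunit protein that S6 kinase phosphorylates, fell at flowering to 158, 166 and 176 FPKM (LOC_Os07g42950), against 306, 343 and 368 FPKM in booting panicles. Flag leaves had 97.3, 96.1 and 91.2 FPKM of it. The 3 groups were apart, with a log2 change of -1.02 for flowering over booting panicles (SE 0.08, adjusted p = 1.7e-06, limma), just past the minimum change, which it missed when booting replicate 3 (-0.96) or flowering replicate 1 (-0.98) was left out.

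The acidic proteins form the stalk, which recruits elongation factors to the ribosome: P0 is its base, P1 and P2 its arms, and P3 a form known from plants. P0 (LOC_Os08g03640) had 184, 209 and 204 FPKM in flowering panicles, 275, 307 and 357 in booting panicles and 119, 128 and 105 in flag leaves. P1 (LOC_Os08g02340) had 95.8, 96.8 and 95.05 FPKM in flowering panicles, 120, 138 and 173 in booting panicles and 56.1, 60.9 and 53.6 in flag leaves. Both had groups that did not overlap, and both changed about as much as the median gene of the large subunit, with -0.64 (P0) and -0.56 (P1) for flowering over booting panicles. The P3-like gene (LOC_Os01g13080) changed by -0.62 and P3 (LOC_Os06g48780) by -0.40.

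P2 was the exception within the stalk. It is encoded by 4 listed genes, of which 2 carried the signal. P2A on chromosome 1 (LOC_Os01g09510, 4852430 to 4854566) had 63.3, 83.5 and 90.6 FPKM in flowering panicles, 164, 189 and 197 in booting panicles and 31.9, 27.6 and 27.3 in flag leaves. P2A on chromosome 2 (LOC_Os02g32760, 19455122 to 19458350) had 34.5, 52.3 and 51.1 FPKM in flowering panicles, 44.8, 48.5 and 54.6 in booting panicles and 4.61, 3.97 and 3.57 in flag leaves. The chromosome 2 gene thus overlapped between the panicle stages and was about as high in both, and was far lower in the leaf than in either. Its log2 change was 3.20 for flowering panicles over flag leaves (SE 0.15, adjusted p = 1.94e-08, limma) and -0.12 for flowering over booting panicles (SE 0.15, adjusted p = 0.491), the second turning to 0.07 without flowering replicate 1. The chromosome 1 gene changed by 1.41 for flowering panicles over flag leaves (SE 0.13, adjusted p = 3.08e-06) and by -1.21 for flowering over booting panicles (SE 0.13, adjusted p = 1.27e-05). Of the summed P2 FPKM, the chromosome 2 gene held 36.5% in flowering panicles, 21.2% in booting panicles and 12.3% in flag leaves.

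L40 and S27a are made as fusions to ubiquitin, from which they are cut. L40 has 2 genes that behaved differently. The ubiquitin fusion L40 gene on chromosome 9 (LOC_Os09g31031, 18669317 to 18671727) had 5.66, 5.63 and 6.37 FPKM in flowering panicles, 27.98, 29.6 and 36.1 in booting panicles and 0.493, 0.611 and 0.581 in flag leaves. Each group was several times away from the next, and the leaf libraries all lay below 1 FPKM. It had the largest fall at flowering of the 156 genes, at -2.22 (SE 0.10, adjusted p = 2.34e-08, limma), and the largest difference between booting panicles and flag leaves, at 4.36 (SE 0.10, adjusted p = 8.48e-11). The other fusion gene, L40-2 (LOC_Os03g13170), had 171, 174 and 167 FPKM in flowering panicles, 179, 201 and 242 in booting panicles and 118, 119 and 107 in flag leaves. It held most of the family's FPKM in every group, so that the chromosome 9 gene was 3.34% of the L40 sum in flowering panicles, 13.1% in booting panicles and 0.490% in flag leaves. The log2 change of L40-2 for flowering over booting panicles was -0.27 (SE 0.10, adjusted p = 0.038). The S27a fusion (LOC_Os01g22490), with means of 175 FPKM in flowering panicles, 269 FPKM in booting panicles and 114 FPKM in flag leaves, changed by -0.61 for flowering over booting panicles.

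In 50 of the 59 families with several genes, the same paralog was the most abundant in all 9 libraries. In L17, L18, L18a, S20 and the L18a-like protein genes the lead differed between groups whose 3 libraries each shared 1 lead. The margin could be small: in booting panicles LOC_Os08g41810 had 217, 261 and 296 FPKM and the other L17 gene, LOC_Os09g08430, had 217, 259 and 287 FPKM. In S3, S6, S9 and S24 the libraries of at least 1 group disagreed on the lead. The families whose paralogs differed most in their change are described next. They were chosen for that difference, so it is a description.

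S10, a small-subunit protein near the mRNA entry site, has 3 genes. The S10-like gene (LOC_Os01g73160) had 21.95, 25.6 and 31.0 FPKM in flowering panicles, 76.0, 91.3 and 104 in booting panicles and 8.26, 8.39 and 7.21 in flag leaves. Its groups were wide apart, with log2 changes of -1.75 for flowering over booting panicles (SE 0.14, adjusted p = 1.13e-06, limma) and 3.34 for booting panicles over flag leaves (SE 0.14, adjusted p = 3.63e-09). The S10 gene LOC_Os02g34460 had 22.6, 27.2 and 25.2 FPKM in flowering panicles, 20.3, 22.3 and 28.1 in booting panicles and 15.9, 18.4 and 15.98 in flag leaves. Its panicle stages overlapped, and its change of 0.09 between them (SE 0.12, adjusted p = 0.498) turned to -0.05 with equal library sums. The S10-like gene held 10.2% of summed S10 FPKM in flowering panicles, 22.7% in booting panicles and 4.56% in flag leaves, while LOC_Os04g35090 held 79.95% in flowering panicles, 71.4% in booting panicles and 85.8% in flag leaves.

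S20 and S18 belong to the head of the small subunit. S20-1 (LOC_Os03g14530) had 21.9, 24.0 and 24.9 FPKM in flowering panicles, 52.3, 63.0 and 71.7 in booting panicles and 9.9995, 11.5 and 9.07 in flag leaves. Its paralog S20 (LOC_Os06g04290) had 70.9, 81.7 and 75.4 FPKM in flowering panicles, 65.2, 69.5 and 81.8 in booting panicles and 40.4, 38.7 and 38.0 in flag leaves. S20-1 fell by 1.35 on the log2 scale at flowering (SE 0.12, adjusted p = 2.6e-06, limma), whereas the panicle stages of the paralog overlapped, with 0.08 that turned to -0.06 with equal library sums. For S18 the gene on chromosome 3 (LOC_Os03g58050) changed by 2.21 between booting panicles and flag leaves (SE 0.10, adjusted p = 5.81e-09) and that on chromosome 7 (LOC_Os07g07709) by 0.84 (SE 0.10, adjusted p = 2.22e-05). The chromosome 3 gene held 64.3% of summed S18 FPKM in flowering panicles, 74.8% in booting panicles and 53.4% in flag leaves.

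Among large-subunit proteins the paralogs of L32 and L28 differed too. The L32 genes lie together on chromosome 9. L32-1 at 19398908 to 19401072 (LOC_Os09g32500) had 27.0, 26.9 and 31.3 FPKM in flowering panicles, 57.3, 66.4 and 80.6 in booting panicles and 11.4, 11.5 and 8.76 in flag leaves. The L32-1 gene at 19418910 to 19421084 on the opposite strand (LOC_Os09g32532) had 45.8, 51.4 and 53.3 FPKM in flowering panicles, 66.0, 76.4 and 85.4 in booting panicles and 36.7, 36.2 and 31.7 in flag leaves. In both genes the groups did not overlap, with changes at flowering against booting of -1.22 (SE 0.14, adjusted p = 1.5e-05, limma) for LOC_Os09g32500 and -0.58 (SE 0.10, adjusted p = 0.000437) for LOC_Os09g32532. L28-1 (LOC_Os01g51020) had 18.9, 20.2 and 21.5 FPKM in flowering panicles, 24.6, 26.5 and 31.3 in booting panicles and 4.59, 4.41 and 3.55 in flag leaves. L28-1-like (LOC_Os02g57540) had 92.5, 91.1 and 85.5 FPKM in flowering panicles, 109, 122 and 150 in booting panicles and 58.5, 58.2 and 52.4 in flag leaves. For flowering over booting panicles the changes were close, at -0.42 for L28-1 and -0.49 for L28-1-like. Both L28 genes were higher in flowering panicles than in the leaf in every library, by 2.04 (SE 0.11, adjusted p = 4.01e-08) for L28-1 and 0.66 (SE 0.11, adjusted p = 0.000206) for L28-1-like.

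For 1 pair in each of 8 families the log2 ratio of paralogs was formed in each library and set between the groups in which the pair differed most. The ratios of those groups did not overlap in any of the 8 pairs. In L40 the ratio of LOC_Os09g31031 to LOC_Os03g13170 was -2.63, -2.72 and -2.71 in booting panicles and -6.32, -6.22 and -6.09 in flag leaves. In P2 the ratio of LOC_Os02g32760 to LOC_Os01g09510 was -0.86, -0.67 and -0.81 in flowering panicles and -2.55, -2.52 and -2.63 in flag leaves. The two-sided exact permutation test gave p = 0.1 for each pair, the smallest that 3 against 3 libraries allow, and it supports nothing here since the pairs were chosen for this difference.

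**Figure D3:**
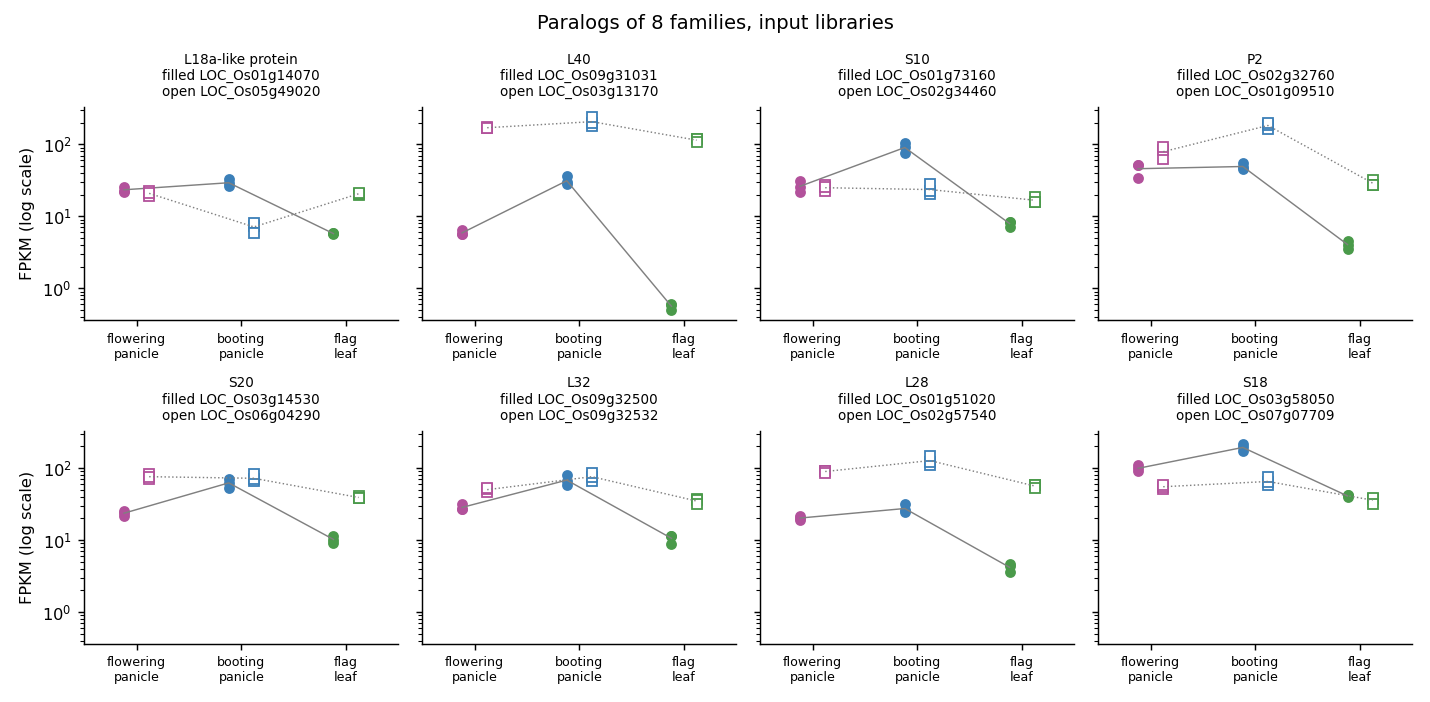
Input FPKM (log axis) of 2 paralogs in each of 8 families, by group. Filled circles and open squares are the 2 genes named above each panel, with a point for each of the 3 libraries, and lines join group means. In L40 the filled gene is at 5.63 to 6.37 FPKM in flowering panicles, 27.98 to 36.1 FPKM in booting panicles and 0.493 to 0.611 FPKM in flag leaves, while the open gene stays above 100 FPKM.

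The remaining genes that fell past the minimum change at flowering included S9-2 (LOC_Os03g26229), a paralog of a protein at the mRNA entry site of the small subunit. It had 8.55, 8.62 and 9.57 FPKM in flowering panicles and 21.6, 24.8 and 24.3 in booting panicles, with a log2 change of -1.31 (SE 0.11, adjusted p = 1.96e-06, limma). L17 (LOC_Os08g41810) had 115, 113 and 122 FPKM in flowering panicles and 217, 261 and 296 in booting panicles, a change of -1.13 (SE 0.10, adjusted p = 3.63e-06). In both genes the stages did not overlap. L18a (LOC_Os01g54870, -1.08), L14 (LOC_Os02g40880, -1.07) and L36-3 (LOC_Os05g38520, -1.05) were close to the minimum change. Without booting replicate 3, L18a (-0.98) and L36-3 (-0.99) missed it, as did L14 without flowering replicate 1 (-0.95). Those that rose most over the leaf in flowering panicles, beside P2, L40, L28-1 and S10-like, included L11-like (LOC_Os02g14059, 1.47), L9-like (LOC_Os02g01332, 1.43) and L13-2 (LOC_Os06g02510, 1.34).

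A few genes were nearly level over the groups. L10-2 (LOC_Os05g07700), named after its values were seen, had 167, 169 and 167 FPKM in flowering panicles, 151, 174 and 185 in booting panicles and 157, 153 and 112 in flag leaves. Leaf replicate 3 stood apart, and all 3 differences missed the threshold on adjusted p (limma), with log2 changes of -0.01 for flowering over booting panicles, 0.27 for flowering panicles over flag leaves and 0.28 for booting panicles over flag leaves. The L10 family, in which it held 75.3% of FPKM in flowering panicles, 66.3% in booting panicles and 79.5% in flag leaves, had the smallest ratios of family sums in all 3 comparisons with deposited FPKM and with equal library sums. After quantile normalization S27 was smallest for flowering over booting panicles, at -0.31.

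The 5 L18a-like protein genes, which the rule takes in by their description, differed among themselves. In 2 of them (LOC_Os01g08814 and LOC_Os01g14070) every booting library lay above every flowering library and every flowering library above every leaf library. Of all genes tested 30.1% had that order. In the other 3 every flowering library lay above every booting library, as in 36.1% of all genes tested. What these proteins do is not stated in the descriptions. LOC_Os05g49020 had 22.3, 19.1 and 21.1 FPKM in flowering panicles, 7.35, 8.09 and 5.93 in booting panicles and 20.004, 20.4 and 21.4 in flag leaves. Booting panicles were low, and flowering panicles and leaves overlapped. Of the 156 genes it alone was called higher at flowering, by 1.44 on the log2 scale (SE 0.10, adjusted p = 4.96e-07, limma), and the only one called lower in booting panicles than in flag leaves, at -1.42 (SE 0.10, adjusted p = 2.61e-07). LOC_Os01g14070 had 22.8, 25.4 and 22.1 FPKM in flowering panicles, 26.0, 29.3 and 32.6 in booting panicles and 5.63, 5.83 and 5.80 in flag leaves. It was high in both panicle stages, with a change of 1.85 for flowering panicles over flag leaves (SE 0.09, adjusted p = 1.72e-08). LOC_Os06g25294 changed little, by 0.18 for flowering over booting panicles (SE 0.08, adjusted p = 0.0797). LOC_Os05g49020 lies 3280 bp from an L18a gene on the same strand of chromosome 5 (LOC_Os05g49030).

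For flowering over booting panicles, the lists of genes that work with the ribosome had negative medians, closer to 0 than the -0.62 of the ribosomal protein genes. Of all genes tested, 15.3% fell and 18.1% rose with the minimum change, and 42.7% fell and 35.4% rose by adjusted p alone (limma). Of 41 translation initiation factors tested, 7.32% fell (3 genes) and 2.44% rose (1 gene) with the minimum change, both below the shares of all genes, and 75.6% fell by adjusted p alone (median -0.32). Of 13 elongation and release factors 1 rose and 1 fell with the minimum change (7.69% each), and 61.5% fell by adjusted p alone (median -0.45). The one that fell was elongation factor 1-gamma 1 (LOC_Os02g12800), with 27.9 ± 1.86 FPKM in flowering panicles and 65.9 ± 5.18 FPKM in booting panicles (SD, n = 3 each; log2 change -1.21, SE 0.09, adjusted p = 5.01e-07, limma). Of 57 ribosome biogenesis factors none rose and 3 fell with the minimum change (5.26%), all 3 described as nucleolin, and 66.7% fell by adjusted p alone (median -0.40). The nucleolin gene LOC_Os05g03440 had 4.21 ± 0.844 FPKM in flowering panicles and 24.3 ± 1.41 FPKM in booting panicles. All 5 nascent chain factors, which meet the growing protein at the ribosome, fell by adjusted p alone (median -0.54), 1 of them past the minimum change. Both genes of the list of TOR and S6 kinase, which signal growth to the ribosome, fell by adjusted p alone (median -0.58), and neither passed the minimum change.

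Over flag leaves the lists differed more. For flowering panicles over flag leaves the median was 0.74 for ribosomal protein genes and 0.44 for all genes tested. It was 0.92 for nascent chain factors, 0.51 for initiation factors, 0.50 for elongation and release factors and 0.26 for ribosome biogenesis factors. Both TOR and S6 kinase genes were lower in flowering panicles than in flag leaves by adjusted p alone (all genes tested, 24.8%; median -0.32). For booting panicles over flag leaves the median was 1.41 for ribosomal protein genes and 0.51 for all genes tested. It was 1.46 for nascent chain factors, 1.08 for elongation and release factors, 0.87 for initiation factors, 0.62 for ribosome biogenesis factors and 0.26 for TOR and S6 kinase.

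Organelle ribosomal proteins, of plastids and mitochondria, went both ways. Of 70 tested, 30 rose (42.9%; all genes tested, 18.1%) and none fell (all genes tested, 15.3%) at flowering against booting with the minimum change. By adjusted p alone 34 rose (48.6%; all genes tested, 35.4%) and 21 fell (30%; all genes tested, 42.7%), with a median of 0.32 (limma). For flowering panicles over flag leaves 20 rose (28.6%; all genes tested, 31%) and 4 fell (5.71%; all genes tested, 11.5%), with a median of 0.42. For booting panicles over flag leaves 26 rose (37.1%; all genes tested, 36.4%) and 31 fell (44.3%; all genes tested, 17.7%), with a median of 0.15. Plastid S20 (LOC_Os01g48690) had 27.8 ± 1.37 FPKM in flowering panicles, 8.14 ± 0.449 FPKM in booting panicles and 49.1 ± 2.42 FPKM in flag leaves (SD, n = 3 each), so that booting panicles were lowest. The list holds descriptions of both organelles, which were not separated.

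Markers of other cells differed between the groups along with the ribosomal protein genes. Tested were 53 genes of dividing cells (histones, A- and B-type cyclins and MCM proteins). At flowering against booting none rose and 36 fell with the minimum change (67.9%, against 15.3% of all genes tested). By adjusted p alone (limma) 1 rose (1.89%, against 35.4% of all genes tested) and 46 fell (86.8%, against 42.7%). Their median was -1.51, against -0.09 for all genes tested. For booting panicles over flag leaves 42 rose with the minimum change (79.2%; all genes tested, 36.4%). The 56 listed summed to 1646 to 1722 FPKM in flowering panicles, 3192 to 4338 in booting panicles and 1191 to 1248 in flag leaves. The 39 pollen genes were those described as pollen-specific, pollen allergen, exopolygalacturonase or profilin. Of them 1 was at 0 in all flowering panicle libraries, 3 in all booting panicle libraries and 2 in all flag leaf libraries. On average 6 lay below 1 FPKM in flowering panicles, 17 in booting panicles and 28 in flag leaves. The list summed to 8412 to 11028 FPKM in flowering panicles, 753 to 805 in booting panicles and 642 to 684 in flag leaves. Of 35 pollen genes tested, 25 rose (71.4%; all genes tested, 18.1%) and 7 fell (20%; all genes tested, 15.3%) at flowering against booting with the minimum change (limma). Green leaf markers, 20 genes, summed to 6561 to 8497 FPKM in flowering panicles, 1383 to 2016 in booting panicles and 20393 to 21149 in flag leaves, with 1 gene at 0 throughout booting panicles and 1 throughout leaves. The 9 floral organ genes summed to 1610 to 1819 FPKM in flowering panicles, 961 to 980 in booting panicles and 16.1 to 19.2 in flag leaves, where 7 of the 9 averaged below 1 FPKM. The part of these cell types in the ribosomal protein values was not tested.

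Nearly all ribosomal protein genes carried m6A peaks, in every group. The authors deposited 1 peak list per group, made from its 3 immunoprecipitates and 3 inputs, so there are no replicates of a peak and no test is given. A peak was assigned to the gene listed with it, which gave 147 of 158 genes in flowering panicles (93%), 146 in booting panicles (92.4%) and 150 in flag leaves (94.9%). Of all genes listed with FPKM, 43.1% had a peak in flowering panicles, 42.5% in booting panicles and 43% in flag leaves. Of all genes tested for expression 63.5% had one in flowering panicles, 63.1% in booting panicles and 64.8% in flag leaves. Among other genes at 20 to 200 FPKM the share was 78.4% in flowering panicles, 82.7% in booting panicles and 85.6% in flag leaves. Ribosomal protein genes in that range stood at 94.9% in flowering panicles, 95.8% in booting panicles and 97.6% in flag leaves. At 200 FPKM or more, 6 of 7 ribosomal protein genes (85.7%) had a peak in flowering panicles, 25 of 29 (86.2%) in booting panicles and 0 of 1 in flag leaves. Of other genes so abundant 41.1% had one in flowering panicles, 62.5% in booting panicles and 66.6% in flag leaves.

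The set of genes with a peak was nearly the same in the 3 lists. A peak was listed in all 3 for 145 genes, in 2 for 3 genes, in 1 for 2 genes and in none for 8 genes. For all 145 genes with a peak in both panicle lists, the peaks overlapped by at least 1 base, and for 137 they did so over at least 50% of each peak. No share over other genes is given beside these counts, so such sharing is not shown to be particular to ribosomal protein genes. The 2 genes with a peak in the leaf list only were S5 (LOC_Os01g01060, fold 3.37 over input) and L7a (LOC_Os01g70010, fold 2.26 over input), both with weak peaks.

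The 8 genes without a peak include the most abundant of all. L39-3 had none in any list at 246 to 678 FPKM, and its span of 4033795 to 4034043 on chromosome 6 is 249 bp in the file. S10-like (LOC_Os01g73160), up to 104 FPKM, and L17 (LOC_Os08g41810), up to 296 FPKM, had none either, nor had the P2 genes with little RNA. S27 (LOC_Os02g27769), SA (LOC_Os07g42450) and L9 (LOC_Os09g31180), named after their values were seen, complete the 8. The spans of the SA and L9 genes do hold peaks, but these are listed under overlapping genes of the opposite strand, LOC_Os07g42440 and LOC_Os09g31170. Counted by overlap with the span, 149 genes carry a peak in flowering panicles, 148 in booting panicles and 152 in flag leaves. Reads of such pairs can be told apart only by strand, and the strand setting of the quantification is not given in the sources used here. SA, also known as the laminin receptor homologue of the small subunit, had a mean of 42.7 FPKM and its partner 37.6 FPKM, and L9 had 161 FPKM and its partner 2.57 FPKM. S3a (LOC_Os03g10340) and L10a (LOC_Os08g44380) also overlap genes of the opposite strand, and under each a nearly identical peak is listed more than once.

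The peaks lay at the 3′ end. By the authors' position classes 127 of 153 peaks were in the 3′ UTR in flowering panicles (83%), 132 of 152 in booting panicles (86.8%) and 129 of 156 in flag leaves (82.7%). Among all peaks the share was 78.5% in the flowering panicle list, 79.7% in the booting panicle list and 79.2% in the flag leaf list. Among peaks of other genes at 20 to 200 FPKM it was 89.2% in flowering panicles, 89.6% in booting panicles and 89.2% in flag leaves. Peaks reached the gene's 3′ end in 74.5% of cases in flowering panicles, 80.3% in booting panicles and 80.1% in flag leaves. Of all peaks 58.5% did so in flowering panicles, 66.4% in booting panicles and 65.3% in flag leaves. Peaks of other genes at 20 to 200 FPKM were closer, at 68.9% in flowering panicles, 75% in booting panicles and 72.5% in flag leaves. Of 145 genes with a peak in all 3 lists, 141 kept the class of their strongest peak, and 121 of these were in the 3′ UTR. This too is given without a share over other genes. The class is a coarse guide where genes are short. Peaks took a median of 33.5% of the gene span in flowering panicles, 30.3% in booting panicles and 37.2% in flag leaves. All peaks took a median of 11.04% in flowering panicles, 11.3% in booting panicles and 12.4% in flag leaves. The peaks classed as 5′ UTR took a median of 98.3% of the span in flowering panicles, 100% in booting panicles and 100% in flag leaves. Of these, 5 of 10 reached the 3′ end in flowering panicles, 5 of 5 in booting panicles and 6 of 8 in flag leaves. Peaks classed as exonic reached it in 16 of 16 cases in flowering panicles, 14 of 15 in booting panicles and 17 of 19 in flag leaves.

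**Figure D4:**
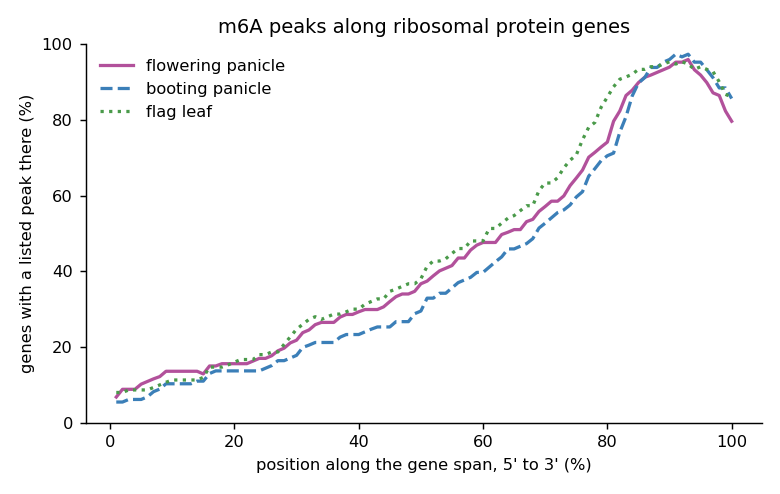
Percentage of ribosomal protein genes with a listed peak that covers each percent of the gene span, from the 5′ end (left) to the 3′ end (right), for the 3 peak lists. Spans include introns, and a peak is drawn from its first to its last base. Coverage is higher toward the 3′ end in each list. At 50% and 90% of the span it is 36.7% and 93.9% of genes in flowering panicles, 29.5% and 95.9% in booting panicles, and 38.0% and 95.3% in flag leaves.

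The folds over input of these peaks, as the authors list them, had lower medians than all peaks of their list, but not in the 5′ UTR class. Folds are compared only within a list. The median fold was 6.05 for ribosomal protein genes and 8.10 for all peaks in flowering panicles, 7.85 and 10.3 in booting panicles, and 10.1 and 10.7 in flag leaves. Peaks of other genes at 20 to 200 FPKM had medians of 8.76 in flowering panicles, 12.9 in booting panicles and 12.4 in flag leaves. The exonic peaks, nearly all of which reached the gene's 3′ end, were the weakest. Their medians were 3.49 in flowering panicles, 3.67 in booting panicles and 4.98 in flag leaves. Among them was the peak of the S6 gene LOC_Os07g42950, at 2.83 in flowering panicles, 2.96 in booting panicles and 3.97 in flag leaves. The other S6 gene (LOC_Os03g27260) had a 3′ UTR peak with a fold of 9.64 in flowering panicles, 13.6 in booting panicles and 14.3 in flag leaves. Also exonic was the peak of the L29-1 gene LOC_Os05g28750, at 1.82 in flowering panicles, 1.49 in booting panicles and 1.87 in flag leaves. The median fold of 40S peaks was 5.58 in flowering panicles, 7.53 in booting panicles and 9.79 in flag leaves, and that of 60S peaks 6.12 in flowering panicles, 8.74 in booting panicles and 10 in flag leaves.

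**Figure D5:**
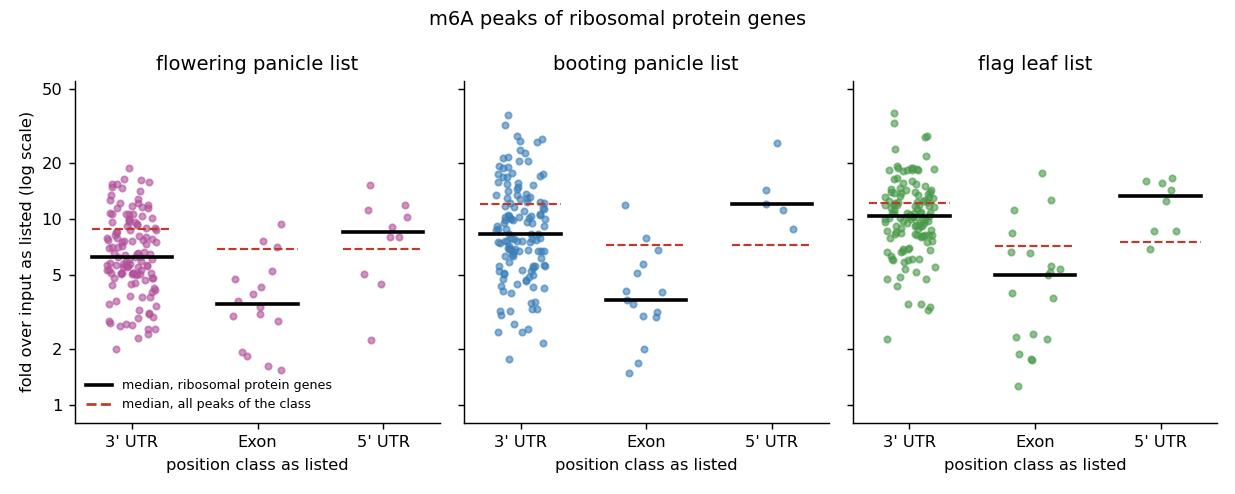
Fold over input of each listed peak in a ribosomal protein gene (log axis), by the authors' position class and peak list. Points are peaks, black bars their medians, and red dashed lines the medians of all peaks of that class in the list. The 3′ UTR medians lie below those of all 3′ UTR peaks, at 6.25 against 8.83 in flowering panicles, 8.30 against 12 in booting panicles and 10.3 against 12.2 in flag leaves. The 5′ UTR medians lie above those of all 5′ UTR peaks, at 8.52 against 6.87 in flowering panicles, 12 against 7.19 in booting panicles and 13.3 against 7.54 in flag leaves.

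Single peaks of high fold differed in order between lists. In flowering panicles the strongest was that of the L18a-like protein gene LOC_Os06g25294 (18.8), at the 88.1 percentile of folds in the list, followed by S25 (LOC_Os11g05562, 16.3) and S4-like (LOC_Os05g30530, 16.2). In booting panicles it was that of L13-2 (LOC_Os06g02510, 36.3), and in flag leaves that of L14 (LOC_Os02g40880, 37.1), on chromosome 2 from 24777727 to 24778374. The L14 peak stood at 7.62 in flowering panicles and 10.2 in booting panicles. Its percentile of folds within the list was 46.3 in flowering panicles, 49.2 in booting panicles and 97.8 in flag leaves. S4-like was high in all lists, at 16.2 in flowering panicles, 23.5 in booting panicles and 32.9 in flag leaves, with 1 block of 509 bp at its 3′ end in each. Within the lists it stood at percentile 82.4 in flowering panicles, 82.3 in booting panicles and 96.8 in flag leaves. The peak of the chromosome 9 ubiquitin-L40 gene had a fold of 2.29 in flowering panicles, 2.47 in booting panicles and 11.2 in flag leaves, where its RNA was under 1 FPKM. Within the lists this peak stood at percentile 6.8 in flowering panicles, 7 in booting panicles and 52.1 in flag leaves. The raw folds are not compared between lists.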

How the data were processed

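Input RNA and m6A immunoprecipitates, 18 libraries, were analysed through an expression table of the 9 inputs and 3 peak lists. Per the submitters' processing notes cutadapt, HISAT2, StringTie, HOMER and ChIPseeker were used. Not given in the sources used here are their versions, the peak caller, the strand setting and the genome build. As expression the authors deposited FPKM. Per the file headers and values, each peak has a deposited fold over input (a ratio), a p-value, and base-10 logarithms of the p-value and FDR. These logarithms were treated as a score in the deposited lists, because the strongest are listed as minus infinity. Each list pools 3 immunoprecipitates and 3 inputs.

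From steps in the FPKM of low genes the depth was estimated at 29100000 to 33100000 fragments per input. The step was searched for only within a preset range, so the estimate could only fall between limits set in advance. Of the low values 29.2 to 34.1% were whole fragments within 0.1, where chance gives 20%. Whole reads were therefore not recovered, and no test of reads or counting interval is given.

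Values were analysed as log2(FPKM + 1) for genes with an FPKM of at least 1 in 3 or more inputs, in limma 3.58.1 (R 4.3.3) with its prior variance following a trend, all 9 inputs in 1 fit, and Benjamini-Hochberg adjustment over 23355 genes. The script was tested on simulated data. Ratios of paralogs used an exact permutation test (scipy 1.17.1). Overlaps of peaks were computed from their first and last bases.

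The ribosomal protein genes, the other lists and the markers were chosen by description with earlier results of these data known. Named genes were up to 10 called genes with the largest change either way per comparison, the 10 most abundant, the stalk and ubiquitin fusion genes, up to 8 families whose paralogs differed most in their change, the 5 peaks of highest fold per list, and genes with a peak in 1 list only. Of the other lists up to 3 called genes with the smallest adjusted p were eligible. Exceptions are marked. Alternatives were other pseudocounts, filters and scalings, a replicate block, a stricter peak threshold, and each library left out in turn. Assigning peaks by overlap with the gene span, and leaving out the L18a-like protein genes, were added after seeing the data.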

Additional observations from a re-analysis of the deposited data

How the results depend on the processing

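The direction of the medians over 40S and 60S genes held in all 3 comparisons under each alternative run. The count of genes called lower in flowering than in booting panicles (14) was 29 with equal library sums, 36 after quantile normalization and 138 with no minimum change, and lay between 8 and 22 with 1 library left out. The 8 came without booting replicate 3 and the 22 without booting replicate 1. For flowering panicles over flag leaves the count called higher (33) was 20 with a pseudocount of 5, 10 after quantile normalization and 148 with no minimum change, and lay between 27 and 38 with 1 library left out. After quantile normalization the medians of this comparison were 0.44 for 40S and 0.48 for 60S genes. For booting panicles over flag leaves the 128 called higher lay between 118 and 133 with 1 library left out. Without the L18a-like protein genes, 0 of the others were called higher in flowering than in booting panicles and 0 lower in booting panicles than in flag leaves (limma). For the scalings, the pseudocount and the libraries left out, no share of all genes called is given beside these counts. The cause of these shifts was not tested.

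Equal library sums moved the median of all genes to -0.21 for flowering over booting panicles, 0.37 for flowering panicles over flag leaves and 0.56 for booting panicles over flag leaves. Quantile normalization moved it to -0.16 for flowering over booting panicles, -0.12 for flowering panicles over flag leaves and 0.00 for booting panicles over flag leaves.

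With the replicate block the counts were 14 lower and 1 higher for flowering over booting panicles, 33 for flowering panicles over flag leaves and 128 for booting panicles over flag leaves. No share of all genes called with the replicate block is given beside these counts. Deviations of same-numbered libraries correlated at -0.1886 to 0.1176, and those of libraries with different numbers at -0.2222 to 0.1586. With 3 libraries per group this cannot tell whether the numbers pair the samples, and the labels do not say.

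Of the named genes these changed sign. For flowering over booting panicles, LOC_Os02g32760 lay between -0.22 and 0.07 with 1 library left out (0.07 without flowering replicate 1), LOC_Os02g34460 at -0.05 with equal library sums and between -0.01 (without booting replicate 1) and 0.22 with 1 library left out, and LOC_Os06g04290 at -0.06 with equal library sums. For flowering panicles over flag leaves, LOC_Os05g49020 was at -0.06 with equal library sums, -0.33 after quantile normalization, and between -0.03 (without flowering replicate 1) and 0.07 with 1 library left out, at -0.00 without leaf replicate 1. After quantile normalization LOC_Os03g26229 was at -0.05 and LOC_Os06g25294 at -0.04. For booting panicles over flag leaves after quantile normalization, LOC_Os06g25294 was at -0.27 and LOC_Os01g70010 at -0.02.

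Genes with a peak in all 3 lists numbered 145 as listed. Counts per list with a fold of at least 5 were 102 in flowering panicles, 114 in booting panicles and 134 in flag leaves. The median fold of all peaks also differed by list, at 8.1 in flowering panicles, 10.3 in booting panicles and 10.7 in flag leaves. The counts are given without a share over all peaks and are not compared between lists. Depth limits the low genes most, and 1 list per group leaves peaks without replicates.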
